A study of Homo sapiens with 8 samples.

Results

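Nascent transcription at 40 min was set against that at 10 min in UV-C-irradiated human fibroblasts, to see which short stress genes and which long genes still gained run-on reads on damaged DNA. The comparison took 4 of the 8 libraries, each by its label: irradiated WT cells at 40 and 10 min, and irradiated KD cells at 40 and 10 min, which form 2 matched pairs. The study asked what the lncRNA *ZFAS1* does in the transcriptional response to bulky DNA damage. The cells were MRC5 lung fibroblasts, in the study's methods the SV40-immortalized MRC5_VA line, either wild type (WT) or depleted of *ZFAS1* by lentiviral RNA interference (KD), in which the line keeps its gene and loses the finished RNA. All 8 groups, controls included, were held for 3.5 h in 100 µM DRB, an inhibitor of the kinase that releases RNA polymerase II (RNAPII) from its pause near gene starts. They were then released from the drug with or without 10 J/m2 UV-C and given 10 or 40 min before nuclei were taken for a 5 min run-on with bromouridine triphosphate (GRO-seq). The 4 libraries without UV-C, WT and KD at 40 and 10 min, were used here as a background only.

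RNAPII held at its pause by DRB starts out again in one wave when the drug is washed away, so a short gene can be crossed soon after release and a long gene takes many minutes. UV-C makes cyclobutane pyrimidine dimers and 6-4 photoproducts, which block an elongating polymerase where they lie in the transcribed strand and call in transcription-coupled nucleotide excision repair. A longer transcription unit offers more targets to such lesions. Immediate early genes, induced through MAP kinases, the serum response factor and CREB without new protein synthesis, are mostly short, as are many targets of p53, of the integrated stress response and of NF-kB.

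Each group was 1 library, so the spread behind every p-value here is that between 2 pairs of libraries, and nothing in the labels says that they came from separate cultures. The tables gave whole-number read counts for 41581 transcripts of 19351 genes, and 1 transcript per gene was kept, the one with the largest distance between start and end (its span). The irradiated libraries held 12867908 reads over these genes in WT cells at 40 min and 10594122 at 10 min, and 14955131 in KD cells at 40 min against 12052097 at 10 min. Those without UV-C held between 10228672 and 21077842. Values are CPM after TMM scaling, counts brought to a common library size, so a loss of transcription in all genes at once would not show, and fewer transcribing cells and less RNA per cell cannot be told apart. All 12 fibroblast markers listed for the cells had reads in all 4 irradiated libraries, led by *VIM* and *COL1A1*, and summed to between 1080 and 1370 CPM. Immune markers summed to between 24.8 and 31.8 CPM and epithelial markers to between 74.8 and 89.9 CPM, and the 605 to 1200 CPM of endothelial markers came mostly from *ERG*. Muscle markers summed to between 46.6 and 77.1 CPM. Of the markers in the tables, 11 of 11 epithelial, 7 of 7 endothelial, 8 of 8 immune and 5 of 6 muscle ones also had reads in all 4 libraries. The presence of reads alone thus does not tell the cell types apart. Of these 5 marker lists 3 genes rose and 5 fell, and their part in the results below was not tested.

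A set of 14 genes stood apart before any comparison over time. These genes, *GRIN2B*, *BOK*, *SYTL4*, *PLPP1*, *NAT10*, *TGM6*, *SLC7A2*, *GLRA3*, *TENM4*, *HINT3*, *THY1* and *AC008132.1* among them, were at least 3-fold higher in both irradiated WT libraries than in each of the other 6 libraries. None of the 14 rose after UV-C, 11 fell and 3 were not called, so several of the falling genes below rest on this feature of the WT pair. *ZFAS1* itself had 583 CPM at 40 min and 677 CPM at 10 min in irradiated WT cells, and 851 CPM at 40 min and 701 CPM at 10 min in irradiated KD cells. Its fitted log2 change over time after UV-C was 0.03 (edgeR's quasi-likelihood test, Benjamini-Hochberg adjusted p = 0.925). RNA interference removes finished RNA, so these nascent reads do not check the KD label, and changes over time were not tested between KD and WT cells.

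Between 10 and 40 min after UV-C, 2231 of 17509 tested genes rose (12.7%) and 1740 fell (9.94%), where rose and fell mean an adjusted p under 0.05 in edgeR's quasi-likelihood test with 1 term for time and 1 for cell, and the same sign in both pairs. The sign was shared by the pairs in 13220 genes (75.5%). At least 2-fold higher at 40 min in both pairs were 304 genes (1.74%), and at least 2-fold lower 63 genes (0.36%). The median span was 18.9 kb in the genes that rose and 53.4 kb in the genes that fell, and 545 of the 2231 risen genes were under 10 kb. With 1 residual degree of freedom the fit leans on the trend of the spread over all genes. A fit of all 8 libraries, with its larger spread, called 137 genes as risen, all among the 2231, and none as fallen, where 3435 had an unadjusted p under 0.05. With any 1 of the 4 irradiated libraries left out of this fit of 8, the time effect rests on a single pair, and few genes or none were called. Scaling set the balance of directions: risen genes were 56.2% of those called with TMM over all genes, 25.7% with TMM over genes of 1 to 10 kb (1368 risen and 3947 fallen), 69.7% with library totals, and 96% with scaling on families that fibroblasts do not transcribe (6147 risen and 256 fallen), the last chosen after seeing the data.

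**Figure D1:**
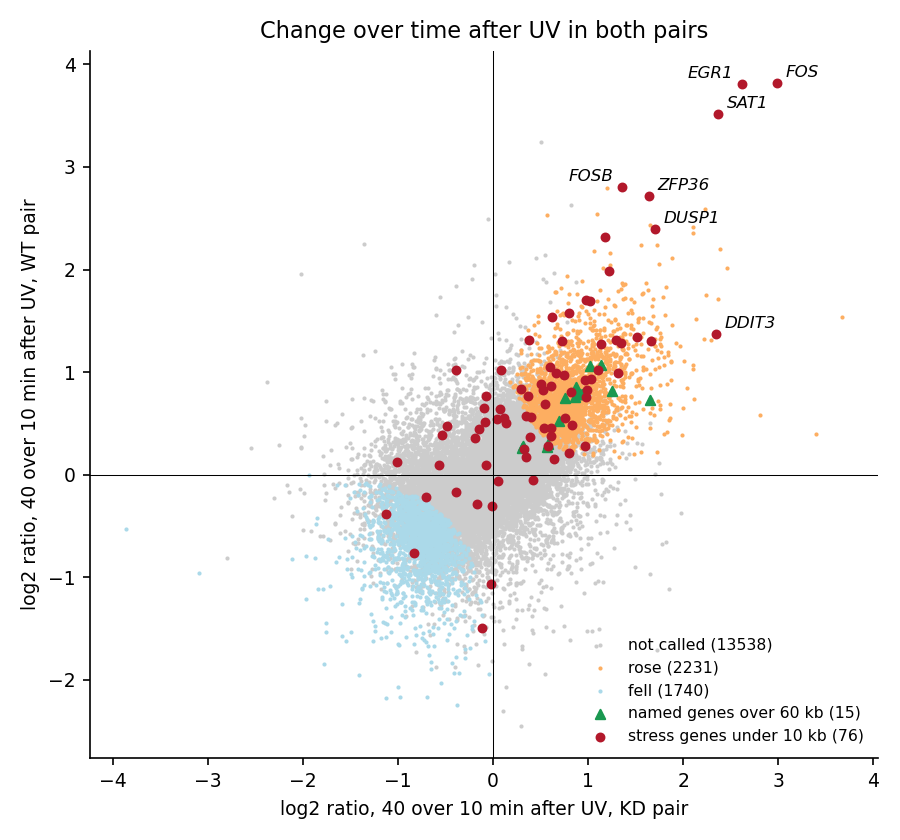
Each point is 1 of the 17509 tested genes, with the log2 ratio of 40 over 10 min after UV-C in the KD pair on the horizontal axis and in the WT pair on the vertical axis. Orange points rose (2231), light blue points fell (1740), red circles are the 76 stress genes under 10 kb and green triangles the 15 named genes over 60 kb, and *FOS*, *EGR1* and *SAT1* lie farthest to the upper right among the labelled genes.

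Of the 12 genes with the largest rise among those with at least 200 reads over the 4 libraries 6 were short stress genes: *FOS*, *EGR1*, *SAT1*, *ZFP36*, *FOSB* and *DUSP1*. Of 184 genes on 8 stress lists, 174 were in the tables. These and the other gene lists were chosen with earlier results of these data known. Their risen shares, here and below, are therefore not independent of the data. The tables held 32 of the 37 listed immediate early and AP-1 genes and did not hold *JUN*, and absent genes could not be seen. Of the 174 genes 80 had a span under 10 kb. Of these 80, 76 passed the filter on low counts, and *CCL20*, *CHAC1*, *DUSP2* and *SDF2L1* were too low to test, with 6 to 37 reads summed over the 4 libraries. A total of 33 of the 76 rose (43.4%), 1 fell (1.32%) and 42 were not called, beside 12.7% and 9.94% of all tested genes. The other 3456 tested genes under 10 kb gave 512 risen (14.8%) and 190 fallen (5.5%). Many of those had few reads, and among active genes, with at least 1 CPM per kb of span over the 8 libraries, 29 of 54 stress genes under 10 kb rose (53.7%) against 361 of the other 1428 under 10 kb (25.3%) and 24.3% of active genes of any span. The 8 libraries that define active genes include the 4 under test, so a gene can count as active through the reads it gained. Risen shares of active genes, here and below, can therefore be in part a property of the choice. How far this raises them was not tested. The median fitted log2 change was 0.60 in the 76 stress genes and 0.13 in the other genes under 10 kb. In 55 of the 76 the ratio was above 1 in both pairs, in 8 it was below 1 in both, and 16 were at least 2-fold higher in both. The count of risen short stress genes ran between 20 (DESeq2) and 57 (scaling on silent families) in fits of the 4 libraries. It was 11 in the fit of all 8 with 1 intercept per pair and 0 in the fit of all 8 with additive terms. With any 1 irradiated library left out of the fit with 1 intercept per pair, few or none were called.

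The AP-1 subunit gene *FOS* (chr14:75278828-75282230, hg38, plus strand) rose most. It had 75.5 CPM at 40 min against 5.20 CPM at 10 min in irradiated WT cells, and 73.4 CPM at 40 min against 9.09 CPM at 10 min in irradiated KD cells. Both 40 min libraries were alike and far above both 10 min libraries. The fitted log2 change was 3.40 ± 0.22 (SE), with an adjusted p of 2.94e-07 by edgeR's quasi-likelihood test. *FOSB*, of the *FOS* family, had 29.9 CPM at 40 min against 4.16 CPM at 10 min in WT cells and 17.1 CPM at 40 min against 6.60 CPM at 10 min in KD cells, a log2 change of 2.07 ± 0.28 (adjusted p = 5.32e-04, edgeR). *EGR1* (chr5:138465479-138469303, plus strand), which encodes a zinc-finger transcription factor of the same early wave, had 419.5 CPM at 40 min against 29.8 CPM at 10 min in WT cells, and 354 CPM at 40 min against 57.6 CPM at 10 min in KD cells. Its log2 change was 3.21 ± 0.25 (adjusted p = 4.36e-06, edgeR). The 40 min libraries again lay above both 10 min libraries, with no overlap. The related *EGR2* and the immediate early gene *IER2* rose with log2 changes of 1.38 and 1.34, the proto-oncogene *MYC* with 0.82 and the survival gene *MCL1* with 0.91. *EGR3*, of the same family as *EGR1*, was lower at 40 min in both pairs without passing the test, with a log2 change of -0.77 (adjusted p = 0.0795, edgeR).

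Of 32 tested immediate early and AP-1 genes of any span 17 rose (53.1%) and none fell, with a median log2 change of 0.61. Of all tested genes 12.7% rose. Of the 24 active members 15 rose (62.5%), beside 24.3% of all active genes. *CCN2*, which encodes the secreted connective tissue growth factor, was among the most transcribed: it had 432 CPM at 40 min and 109 CPM at 10 min in WT cells, and 454 CPM at 40 min and 195 CPM at 10 min in KD cells. The increase in *CCN2* was 1.60 ± 0.21 on the log2 scale (adjusted p = 5.1e-04, edgeR). *ZFP36* encodes tristetraprolin, which sends AU-rich messages to decay, and had 9.58 CPM at 40 min and 1.32 CPM at 10 min in WT cells, and 12.4 CPM at 40 min and 3.86 CPM at 10 min in KD cells. Its increase was 2.13 ± 0.30 (adjusted p = 5.32e-04, edgeR). *CCN1*, the neighbour of *CCN2* in its family, missed the threshold at 0.57 (adjusted p = 0.0556, edgeR) with more than 450 CPM in every irradiated library, and *FOSL1* missed it at 0.48 (adjusted p = 0.0564, edgeR).

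Of 18 tested inhibitors that switch MAP kinase signals off 5 rose (27.8%), 1 fell and 12 were not called, beside 12.7% risen among all tested genes. Of the 11 active ones 5 rose (45.5%), beside 24.3% of all active genes. *DUSP1*, a phosphatase of p38 and JNK (chr5:172768096-172771195, minus strand), had 53.3 CPM at 40 min against 10.0 CPM at 10 min in WT cells and 62.9 CPM at 40 min against 19.2 CPM at 10 min in KD cells. *DUSP6*, a phosphatase of ERK, had 11.7 CPM at 40 min against 4.63 CPM at 10 min in WT cells and 31.8 CPM at 40 min against 9.95 CPM at 10 min in KD cells. In both genes the 40 min libraries stood above both 10 min libraries. The log2 changes were 2.04 ± 0.20 for *DUSP1* and 1.53 ± 0.21 for *DUSP6* (adjusted p = 2.39e-05 and 5.32e-04, edgeR). Longer members were among the 5: *DUSP5*, a nuclear ERK phosphatase of 13.6 kb, rose by 1.89 and *ERRFI1*, an inhibitor of the EGF receptor of 14.6 kb, by 1.90 on the log2 scale. The fallen member was *DUSP8* at -0.96.

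Part of the integrated stress response list and of the p53 list rose. *ATF4*, the transcription factor at the centre of the integrated stress response (chr22:39520564-39522685, plus strand), had 27.5 CPM at 40 min and 5.38 CPM at 10 min in WT cells, and 27.7 CPM at 40 min and 12.2 CPM at 10 min in KD cells. Its log2 change was 1.71 ± 0.24 (adjusted p = 5.47e-04, edgeR). *DDIT3*, which encodes the pro-apoptotic factor CHOP downstream of ATF4, was lowly transcribed, with 2.70 CPM at 40 min and 0.945 CPM at 10 min in WT cells, and 4.58 CPM at 40 min and 0.772 CPM at 10 min in KD cells. At these few reads its log2 change of 2.06 had the largest error of the 12 genes described in full (SE 0.41, adjusted p = 0.00367, edgeR). The phosphatase subunits that reverse eIF2α phosphorylation, *PPP1R15A* and *PPP1R15B*, rose with log2 changes of 1.18 and 1.31, and *HERPUD1*, a gene of endoplasmic reticulum protein degradation, with 1.51. Of 23 tested genes of the unfolded protein and integrated stress response 8 rose (34.8%) and none fell (median 0.31), beside 12.7% risen of all tested genes. Of the 15 active ones 5 rose (33.3%), beside 24.3% of all active genes.

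Among 29 p53 targets 14 rose (48.3%) and none fell (median 0.50), beside 12.7% risen of all tested genes. Of the 13 active ones 7 rose (53.8%), beside 24.3% of all active genes. *PMAIP1*, which encodes the BH3-only protein NOXA, had 43.7 CPM at 40 min against 17.2 CPM at 10 min in WT cells and 69.9 CPM at 40 min against 24.4 CPM at 10 min in KD cells. The increase was 1.44 ± 0.17 (adjusted p = 2.29e-04, edgeR). *GADD45A* and *PLK2* rose with log2 changes of 1.21 and 1.16. *CDKN1A*, the p21 gene and the best known p53 target, was higher at 40 min in both pairs at 0.50 but did not pass (adjusted p = 0.0719, edgeR), and neither did *MDM2* at 0.24 (adjusted p = 0.314, edgeR). *GDF15*, another p53 target, had a log2 change of -0.90 at under 2 CPM in every irradiated library (adjusted p = 0.136, edgeR). The line was immortalized with SV40, whose large T antigen binds p53, and the activity of p53 was not measured in these libraries.

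*SAT1*, which acetylates spermidine and spermine for export and breakdown (chrX:23783173-23786226, plus strand), ranked behind *FOS* and *EGR1* alone among the 76. It had 44.8 CPM at 40 min against 3.78 CPM at 10 min in WT cells and 52.5 CPM at 40 min against 10.0 CPM at 10 min in KD cells, a log2 change of 2.89 ± 0.24 (adjusted p = 4.75e-06, edgeR). A further 3 genes of polyamine metabolism rose less, *ODC1* by 0.67, *AMD1* by 0.73 and *AZIN1* by 0.62, and *SMOX* fell by 0.58 on the log2 scale. In the NF-kB list 7 of 25 rose (28%) and 1 fell (4%), beside 12.7% and 9.94% of all tested genes. Of its 11 active members 6 rose (54.5%) and 1 fell (9.09%), beside 24.3% and 7.82% of all active genes. The chemokine gene *CXCL2* had 3.22 CPM at 40 min against 1.23 CPM at 10 min in WT cells and 3.30 CPM at 40 min against 1.20 CPM at 10 min in KD cells, a log2 change of 1.42 ± 0.37 (adjusted p = 0.0137, edgeR). Its neighbour in function *CXCL8* and the inhibitor gene *NFKBIA* rose with log2 changes of 1.03 and 0.74. The fallen member was *NFKB2*, the one short stress gene that fell, with 21.03 CPM at 40 min against 59.5 CPM at 10 min in WT cells and 17.7 CPM at 40 min against 19.2 CPM at 10 min in KD cells. Its log2 change of -0.84 (adjusted p = 0.0237, edgeR) thus came almost wholly from 1 high library, WT at 10 min. Of 21 cytosolic chaperone genes 4 rose (19%) and none fell, beside 12.7% of all tested genes risen. Of the 18 active ones 4 rose (22.2%), beside 24.3% of all active genes. *DNAJB1* led at 0.86, while *HSPA8*, the most transcribed short stress gene, had a log2 change of 0.32 (adjusted p = 0.322, edgeR).

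These 12 genes were taken for the largest fitted changes in the same libraries, so their separation in time is in large part a property of the choice. For each of them (*FOS*, *EGR1*, *SAT1*, *ZFP36*, *FOSB*, *DDIT3*, *DUSP1*, *ATF4*, *CCN2*, *DUSP6*, *PMAIP1* and *CXCL2*) both 40 min libraries lay above both 10 min libraries, and the 95% interval of the ratio within each pair, for counting error only, lay above 1. The 12 had spans of 2.12 to 7.18 kb, and 9 of them also passed in the fit of all 8 libraries, the exceptions being *DDIT3*, *DUSP6* and *CXCL2*.

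**Figure D2:**
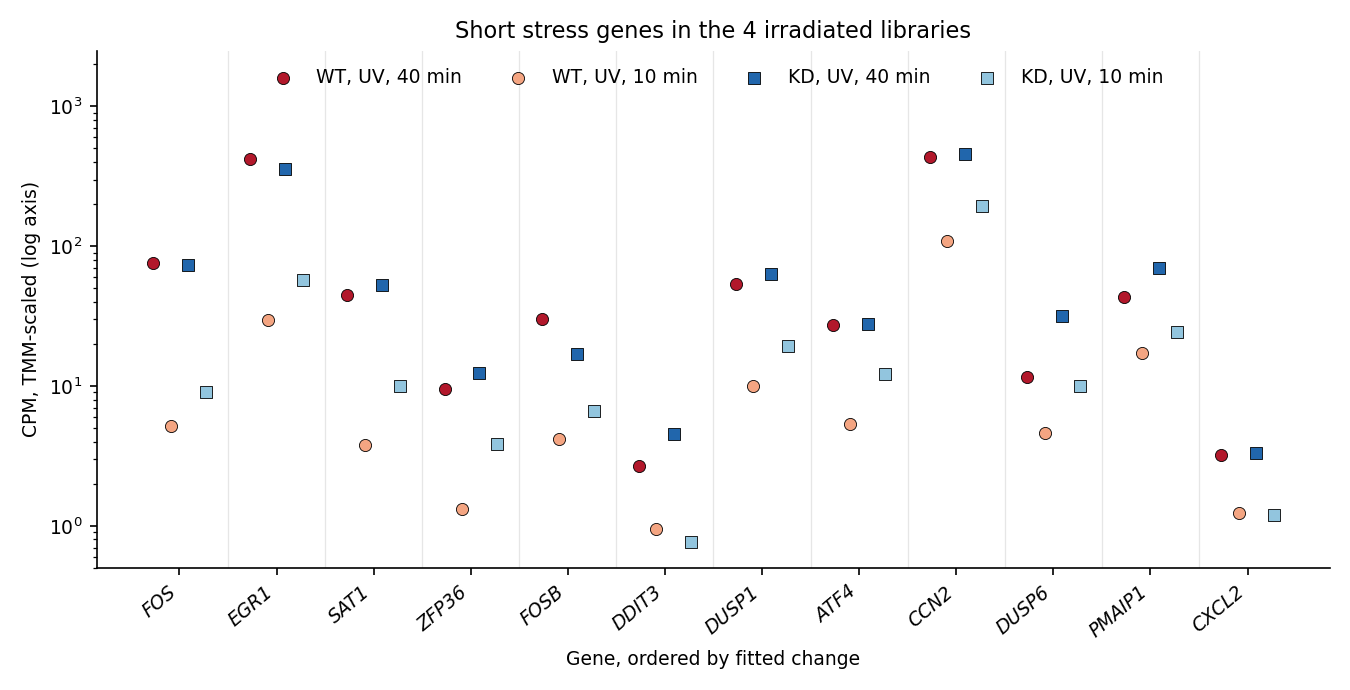
TMM-scaled CPM on a log axis for the 12 short stress genes with the largest fitted change, ordered from left to right by that change, in the 4 irradiated libraries (red circles WT, blue squares KD, dark 40 min, light 10 min; 1 library each). In every gene the dark symbol lies above the light symbol of the same cells, from *FOS* with 75.5 against 5.20 CPM in WT cells to *CXCL2* with 3.22 against 1.23 CPM.

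The promoters of the 12 genes were searched for the sites of the factors that early genes are known for, over the 250 bases before the RefSeq start (GRCh38.p14), on both strands. The searched letters were TGACGTCA, the cyclic AMP response element bound by CREB and ATF factors, TGACTCA or TGAGTCA, the AP-1 site, and the CArG box of the serum response factor. Of the 12 promoters 3 held one of them and 9 held none in this window. The 3 are shown because each holds a different site, in capitals. *EGR1* (chr5:138465229-138465478, plus strand) has 2 CArG boxes, which begin 105 and 83 bases before the start. *DUSP1* (chr5:172771196-172771445, minus strand) has TGACGTCA from 125 bases before the start, and *DDIT3* (chr12:57520515-57520764, minus strand) has TGACTCA from 241 bases before it.
EGR1: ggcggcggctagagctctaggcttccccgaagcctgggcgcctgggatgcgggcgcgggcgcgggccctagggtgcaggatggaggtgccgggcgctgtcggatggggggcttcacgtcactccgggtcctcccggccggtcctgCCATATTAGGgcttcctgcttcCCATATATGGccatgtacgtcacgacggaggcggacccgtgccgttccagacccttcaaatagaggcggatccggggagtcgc
DUSP1: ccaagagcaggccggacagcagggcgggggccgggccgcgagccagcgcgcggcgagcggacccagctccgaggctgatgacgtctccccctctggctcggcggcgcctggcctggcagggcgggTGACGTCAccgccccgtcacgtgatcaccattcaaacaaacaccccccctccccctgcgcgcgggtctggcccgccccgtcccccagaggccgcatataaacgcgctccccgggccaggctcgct
DDIT3: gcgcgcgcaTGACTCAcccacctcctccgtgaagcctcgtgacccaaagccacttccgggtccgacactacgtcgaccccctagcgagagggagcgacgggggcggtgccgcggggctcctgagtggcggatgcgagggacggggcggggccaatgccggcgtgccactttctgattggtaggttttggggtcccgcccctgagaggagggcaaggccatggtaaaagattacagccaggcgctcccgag
Of 35116 promoters of the same length, 1.16% held a CArG box, 1.65% held TGACGTCA and 4.2% held TGACTCA or TGAGTCA.

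Without UV-C the same genes also gained reads over the same 30 min in part, which sets a background for the changes above. For this comparison all 8 libraries were scaled together, which puts the median log2 ratio of 40 over 10 min over all genes at 0.101 in the irradiated WT pair, 0.106 in the irradiated KD pair, -0.452 in the WT pair without UV-C and -0.055 in the KD pair without UV-C. On that scale *FOS* had log2 ratios of 3.92 and 3.12 in irradiated WT and KD cells, against 1.65 and 1.56 without UV-C. *ATF4* had 2.42 and 1.31 with UV-C against 0.01 and -0.05 without, and *PPP1R15A* had 1.68 and 0.93 with UV-C against -0.52 and -0.30 without. *CCN2*, in contrast, had 2.08 and 1.35 with UV-C against 1.45 and 1.47 without, and *DDIT3* 1.46 and 2.48 against 2.75 and 1.996, where the ranges overlap. Of the 33 risen short stress genes 20 had both irradiated ratios above both unirradiated ones and 1, *CXCL8*, had both below, beside 369 above and 13 below of the other 512 risen genes under 10 kb. All of these were chosen for high irradiated ratios, so an excess above is in part a property of the choice. The medians over the 76 were 0.82 and 0.69 in irradiated WT and KD cells, against 0.13 and 0.29 without UV-C. Those over the other tested genes under 10 kb were 0.30 and 0.17 with UV-C against -0.68 and -0.31 without, so a higher ratio with UV-C was not particular to the stress genes. No gene passed for a difference in the time effect between irradiated and unirradiated cells (0 of 17840, 0% called, edgeR's quasi-likelihood test on 8 libraries; 3371 had an unadjusted p under 0.05 and the smallest adjusted p was 0.13), whereas DESeq2 called 1348. The unadjusted p of that term was 0.000553 for *FOS* (log2 difference 1.91) and 0.00196 for *ATF4* (1.87).

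The largest risen changes outside the stress lists belonged mostly to short genes too. *MYLIP*, which encodes the ubiquitin ligase that degrades the LDL receptor, spans 19.2 kb and had 31.5 CPM at 40 min against 5.10 CPM at 10 min in WT cells and 47.2 CPM at 40 min against 9.95 CPM at 10 min in KD cells (log2 change 2.42, adjusted p = 4.75e-06, edgeR). *BAMBI*, a pseudoreceptor that dampens TGF-beta signals, had 6.89 CPM at 40 min against 1.98 CPM at 10 min in WT cells and 13.5 CPM at 40 min against 2.49 CPM at 10 min in KD cells (2.15). *BTG1*, an antiproliferative gene, rose by 2.27, but 42.9% of its span lies in *LINC01619* on the same strand, so the reads of the pair cannot be told apart. The transcribed pseudogene *ZNF252P* (2.37), *C14orf28* (2.25) and the histone H4 gene *HIST1H4H* (2.03) complete the 12 largest among genes with at least 200 reads, all of which also passed in the fit of 8 libraries. *HIST1H4H* had log2 ratios of 2.34 and 1.85 with UV-C against 0.01 and 0.51 without.

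The 8 largest falls were of another kind, and none passed in the fit of 8 libraries. *BOK* had 388 CPM at 40 min against 1739 CPM at 10 min in WT cells and 39.0 CPM at 40 min against 63.0 CPM at 10 min in KD cells, *SLC7A2* 119.9 against 569 CPM in WT cells and 12.3 against 16.0 CPM in KD cells, and *THY1* 17.5 against 67.9 CPM in WT cells and 1.41 against 1.46 CPM in KD cells. These 3 and *AC008132.1* are among the 14 genes that stood apart in irradiated WT cells, and the change of *THY1* turned to 0.085 when the WT library at 40 min was left out. *DECR2* and *FAM153B* had the same imbalance between WT and KD cells. *FAM228A*, with the largest fitted fall of -2.46, had 1.14 CPM at 40 min against 18.8 CPM at 10 min in KD cells and 2.17 CPM at 40 min against 3.21 CPM at 10 min in WT cells. Of the 1740 fallen genes 985 (56.6%) had a read density under 2 times that of gene families silent in fibroblasts, against 381 (17.1%) of the risen genes and 8706 (49.7%) of all tested genes.

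The share of risen genes was lower in genes over 60 kb than in shorter ones. Of 1310 tested genes of 1 to 5 kb 11.5% rose, as did 17.7% of those of 5 to 10 kb, 18.7% of those of 10 to 30 kb, 14.2% of those of 30 to 60 kb, 5.98% of those of 60 to 100 kb, 1.66% of those of 100 to 200 kb and 0.0855%, 1 of 1170, of those over 200 kb. Fallen genes were 4.35% of the shortest and 23.2% of the longest class, but among active genes 5.97% and 9.82%. Among the 5319 active genes the median log2 ratio after UV-C was 0.54 in WT and 0.28 in KD cells at 1 to 5 kb, 0.33 and 0.42 at 30 to 60 kb, and -0.03 and 0.08 over 200 kb. Without UV-C the order differed: the medians were -0.70 in WT and -0.30 in KD cells at 1 to 5 kb, 0.58 and 1.01 at 60 to 100 kb, and -0.49 and 0.32 over 200 kb. The gain of short genes over genes above 100 kb after UV-C was 0.49 (0.55 against 0.06) in WT cells and 0.23 (0.38 against 0.15) in KD cells. With scaling on silent families the medians of genes of 1 to 10 kb were 0.73 in WT and 0.65 in KD cells with UV-C, against 0.79 and 0.20 without, so the order of the WT pairs turned round. Span, the number of lesions and the time the wave needs to cross a gene cannot be told apart here.

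**Figure D3:**
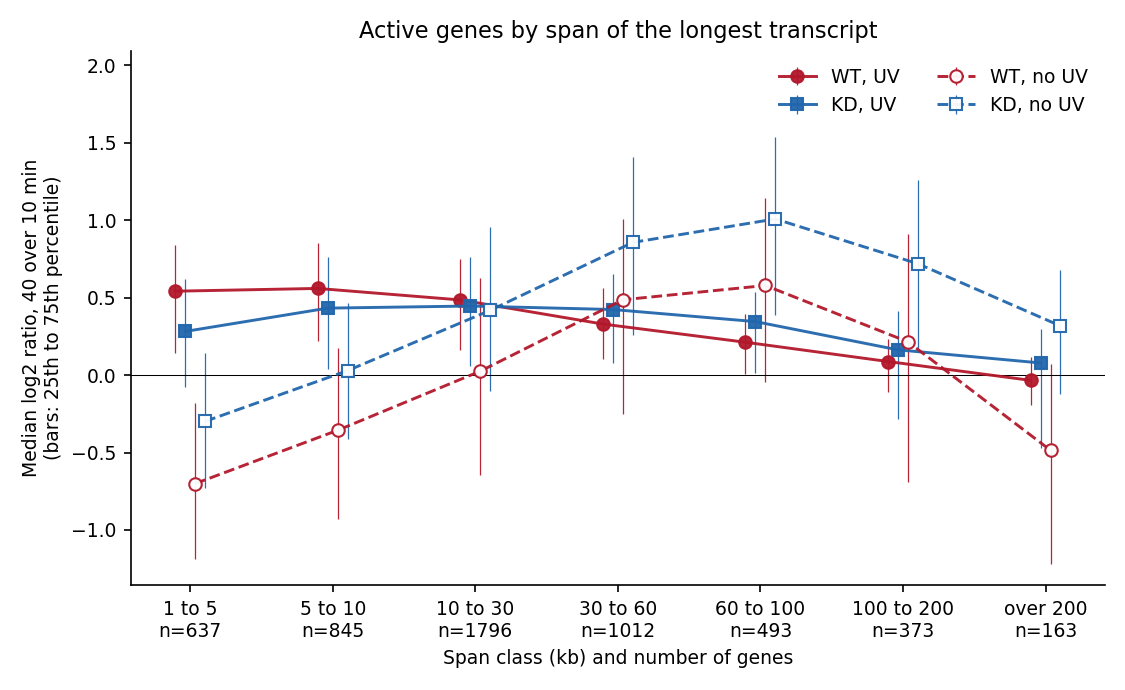
Median log2 ratio of 40 over 10 min (vertical axis; bars from the 25th to the 75th percentile over genes) in 7 span classes of the 5319 active genes, with the number of genes under each class. Filled symbols and solid lines are irradiated pairs and open symbols and dashed lines unirradiated pairs (red WT, blue KD): the irradiated medians are 0.54 and 0.28 in the shortest class and -0.03 and 0.08 in the longest, while the unirradiated ones peak at 0.58 and 1.01 in the class of 60 to 100 kb.

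Nested transcripts that share a start let stretches of a gene be read by their distance from it, as the difference in counts between the longer and the shorter model. This gave 1311 stretches in 829 genes with at least 20 reads. Each stretch was placed by the distance of its midpoint from the start, so it can reach beyond the limits of its class. After UV-C the median log2 ratio was 0.36 in WT and 0.34 in KD cells for midpoints in the first 5 kb. It was 0.19 and 0.31 at 10 to 20 kb, and -0.14 and -0.10 beyond 150 kb. Without UV-C it was -0.77 and -0.31 for midpoints in the first 5 kb, 0.02 and 0.10 at 10 to 20 kb, and -1.23 and -0.43 beyond 150 kb. Stretches of 1 gene share reads and are not independent, so no test was made. The signs for midpoints in the first 5 kb without UV-C depended on the scaling. They turned positive in WT cells with scaling on silent families (0.54). With that scaling the WT and KD medians at 10 to 20 kb were 0.38 and 0.58 with UV-C against 1.32 and 0.41 without. Beyond 150 kb they were 0.04 and 0.17 against 0.07 and -0.12, so the order of the WT pairs turned round in both classes.

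**Figure D4:**
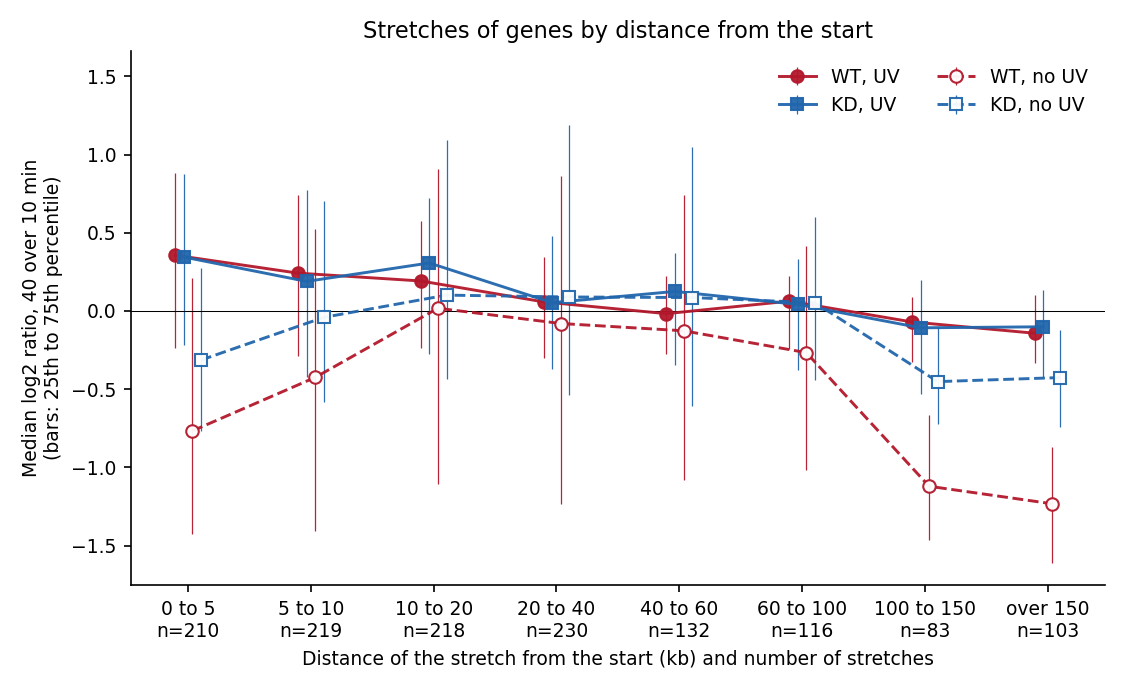
Median log2 ratio of 40 over 10 min (vertical axis; bars from the 25th to the 75th percentile) of 1311 stretches of genes by the distance of their midpoint from the start in kb, with the number of stretches under each class. Filled symbols with solid lines are irradiated pairs and open symbols with dashed lines unirradiated pairs (red WT, blue KD). With TMM scaling both irradiated medians lie above both unirradiated ones in each class up to 20 kb and in the classes beyond 100 kb, an order that depended on the scaling. They are 0.36 and 0.34 against -0.77 and -0.31 in the first class, and -0.14 and -0.10 against -1.23 and -0.43 beyond 150 kb.

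Long genes that still gained reads were few. Of 4894 tested genes over 60 kb 146 rose (2.98%) and 808 fell (16.5%), and over 100 kb 31 of 2970 rose (1.04%) and 569 fell (19.2%). The 15 named here, 5 in each of 3 span classes, were taken for the largest smaller-of-both ratios, so that they were higher at 40 min in both pairs is a property of the choice. Of the 15, 11 rose by the test and 4 of those over 200 kb did not pass. Only *MFSD14C* of the 15 also passed in the fit of 8 libraries, and 9 of the 15 had a read density under 2 times that of silent families.

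*INTS6*, a subunit of the Integrator complex that cleaves nascent RNA near the pause, spans 91.6 kb and had 49.4 CPM at 40 min against 29.7 CPM at 10 min in WT cells and 86.3 CPM at 40 min against 27.4 CPM at 10 min in KD cells (log2 change 1.20, adjusted p = 0.00151, edgeR). *MFSD14C* (chr9:96946164-97013366, minus strand, 67.2 kb) had 31.1 CPM at 40 min against 14.7 CPM at 10 min in WT cells and 44.2 CPM at 40 min against 19.98 CPM at 10 min in KD cells, a change of 1.11 ± 0.18 (adjusted p = 0.001, edgeR). *UBAP1*, a subunit of the ESCRT-I sorting complex of 73.5 kb (chr9:34179043-34252523, plus strand), had 35.1 CPM at 40 min against 16.7 CPM at 10 min in WT cells and 38.8 CPM at 40 min against 19.0 CPM at 10 min in KD cells (1.05, adjusted p = 0.00144, edgeR). Over 15 alternative settings the log2 change of *UBAP1* ran from 0.13 to 1.39. In all 3 the 40 min libraries stood above both 10 min libraries. Yet each gained far more without UV-C: *MFSD14C* had log2 ratios of 1.17 and 1.27 with UV-C against 2.79 and 2.75 without, *UBAP1* 1.16 and 1.15 against 2.98 and 2.67, and *INTS6* 0.83 and 1.78 against 2.94 and 3.20.

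Between 100 and 200 kb, *VMP1* was the most transcribed by far, at 24.4 times the read density of silent families. This gene of an autophagy membrane protein, which overlaps the microRNA gene *MIR21* at its end, spans 134.6 kb (chr17:59707654-59842255, plus strand). It had 968 CPM at 40 min against 559.9 CPM at 10 min in WT cells and 1146 CPM at 40 min against 597 CPM at 10 min in KD cells, a log2 change of 0.86 ± 0.21 (adjusted p = 0.00935, edgeR). Its gain was near that without UV-C, with log2 ratios of 0.89 and 1.07 against 1.06 and 1.26. *EPC1*, a subunit of the NuA4 acetyltransferase complex, and *FRYL* rose by 1.04 and 0.87, and had 2.66 and 2.16, and 2.31 and 1.94, without UV-C. Over 15 alternative settings the log2 change of *FRYL* ran from 0.22 to 1.21. *AMPD3*, an AMP deaminase, rose by 0.84. *LINC01619* rose by 0.86 at a density of 0.74 times that of silent families, and its reads cannot be told apart from those of *BTG1*, which lies partly within it on the same strand. *AMPD3* and *LINC01619* had higher ratios with UV-C (0.89 and 1.02, and 0.89 and 1.05) than without (0.71 and 0.84, and 0.51 and 0.16). Of 16 tested stress genes over 60 kb 2 rose (12.5%), beside 2.98% of all tested genes over 60 kb. *SGK1*, a serum-induced kinase of 148.8 kb, had 84.5 CPM at 40 min against 55.9 CPM at 10 min in WT cells and 95.8 CPM at 40 min against 54.0 CPM at 10 min in KD cells (0.71). The p53 target *PPM1D*, of 66.1 kb, rose by 0.86.

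The single gene over 200 kb that rose was *FILIP1L* (chr3:99833144-100114513, minus strand, 281.4 kb). It had 89.6 CPM at 40 min against 62.2 CPM at 10 min in WT cells and 100.2 CPM at 40 min against 62.0 CPM at 10 min in KD cells, a log2 change of 0.61 ± 0.16 (adjusted p = 0.0161, edgeR). Its read density was 1.11 times that of silent families, and its ratios without UV-C, 0.68 and 0.45, lay in the range of those with UV-C, 0.63 and 0.82. The chromatin remodeller gene *ATRX* (0.44, adjusted p = 0.0751), the tankyrase gene *TNKS* (0.42, 0.0927), the actin-associated *PDLIM5* (0.29, 0.238) and the sphingomyelin synthase gene *SGMS1* (0.28, 0.226) did not pass in edgeR, and the value for *TNKS* turned to -0.058 with the shortest transcript.

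**Figure D5:**
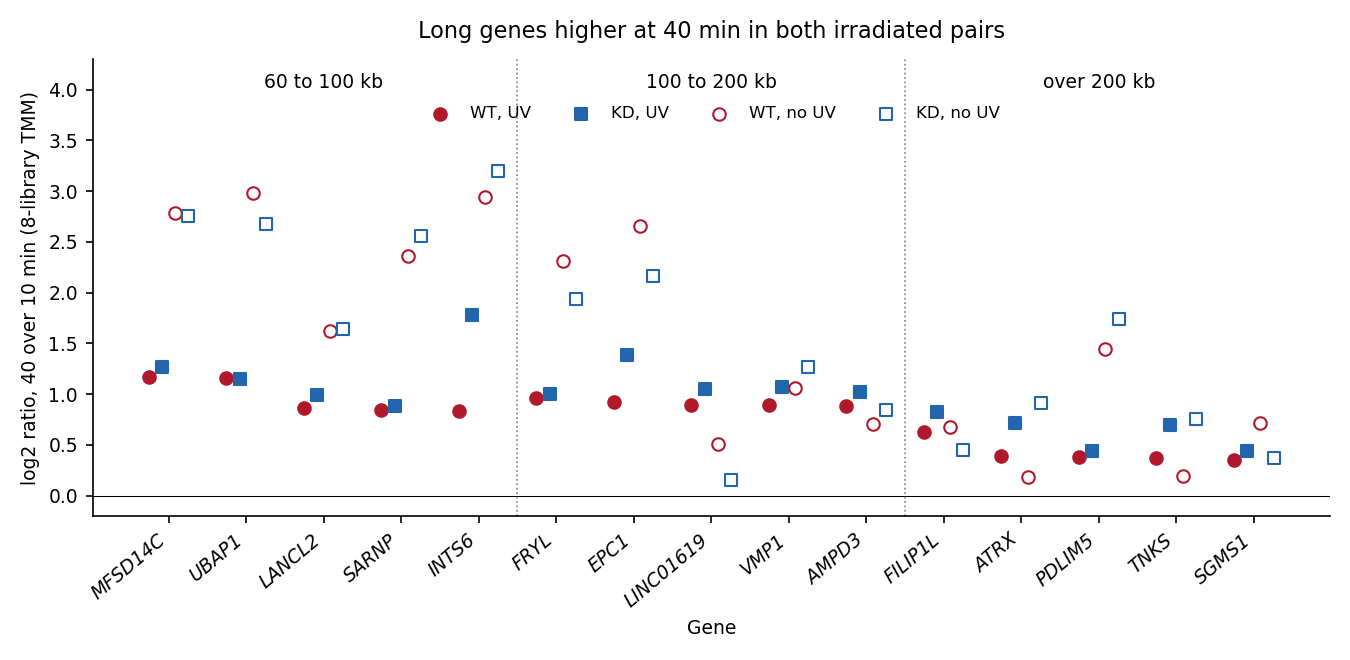
Log2 ratio of 40 over 10 min (vertical axis, all 8 libraries scaled together) of the 15 named genes over 60 kb in 3 span classes, 1 point per pair of libraries (filled symbols with UV-C, open symbols without; red WT, blue KD). In *MFSD14C*, *UBAP1* and *INTS6* the filled symbols lie at 0.83 to 1.78 and the open ones at 2.67 to 3.20, whereas in *VMP1* and *FILIP1L* the pairs with and without UV-C lie close together.

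Risen short and risen long genes differed in what they did without UV-C. Of the 545 risen genes under 10 kb 389 had both irradiated ratios above both unirradiated ones and 14 had both below. Risen genes were chosen for high irradiated ratios, so an excess above is in part a property of the choice. All tested genes under 10 kb had medians of 0.31 and 0.18 with UV-C in WT and KD cells against -0.67 and -0.30 without. Of the 146 risen genes over 60 kb 5 had both above and 132 both below. The medians of the short ones were 1.04 and 1.00 in irradiated WT and KD cells against 0.27 and 0.37 without UV-C, and those of the long ones 0.60 and 0.82 against 1.74 and 1.93. The pattern of the long genes held with library totals (130 below) and with scaling on silent families (136 below). That of the short genes held with library totals (433 above and 9 below) and was lost in large part with scaling on silent families (124 above and 61 below).

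Other gene lists of the damage response varied in their risen shares. Of active genes of like span 33.6% rose at 10 to 30 kb and 24.5% at 30 to 60 kb, and of all tested ones 18.7% and 14.2%. Among active members 31.6% rose in the repair list and 30.8% in the damage signalling list. The shares were 42.9% in the elongation list and 57.1% in the SR and CLK list. Of 31 tested genes of transcription-coupled and excision repair 11 rose (35.5%; 6 of the 19 active ones, 31.6%) and none fell: the TFIIH kinase *CDK7* with a log2 change of 1.31, its cyclin *CCNH* with 0.78, the damage-binding *XPA*, *DDB2* and *XPC* with 0.97, 0.92 and 0.74, and the sliding clamp *PCNA* with 0.87 among them. The checkpoint genes *HUS1* and *RAD1*, which encode 2 parts of the clamp loaded at damage, rose with 1.17 and 1.09 among 7 of 24 damage signalling genes (29.2%). In the elongation list 12 of 34 rose (35.3%) and 2 fell, the subunits of the pause-release kinase P-TEFb *CDK9*, *CCNT1* and *CCNT2* rising with 0.68, 0.79 and 0.80. Of 17 SR splicing factor and CLK kinase genes 10 rose (58.8%) and none fell, with a median of 0.59. *CLK1*, which phosphorylates SR proteins, had 52.8 CPM at 40 min against 18.7 CPM at 10 min in WT cells and 76.1 CPM at 40 min against 24.3 CPM at 10 min in KD cells, a log2 change of 1.57 (adjusted p = 8.61e-05, edgeR), and *SRSF6* rose by 1.23. Of 78 ribosomal protein genes, most of them under 10 kb, 13 rose (16.7%), beside 15.4% of all tested genes under 10 kb. Of the 76 active ones 12 rose (15.8%), below the 26.3% of active genes under 10 kb. Of 13 snoRNA host genes none was called.

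Of the genes the study discusses, *ZNFX1*, the neighbour of *ZFAS1*, rose: it had 22.5 CPM at 40 min against 12.9 CPM at 10 min in WT cells and 26.4 CPM at 40 min against 16.9 CPM at 10 min in KD cells, a log2 change of 0.72 ± 0.19 (adjusted p = 0.0137, edgeR). *ZFAS1* had log2 ratios of -0.11 and 0.41 with UV-C against 1.82 and 1.16 without. *TP53TG1*, *PPP1R12A*, *ASCC3*, *SNHG15*, *CTNNBL1* and *KIFAP3* were not called, with log2 changes of 1.00, 0.36, 0.31, -0.03, -0.13 and -0.34.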

How the data were processed

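Strand-specific GRO-seq libraries (single-end reads) were aligned by the authors with BWA 0.5.9 to hg38, and the deposited values are raw counts per transcript, not normalized. No source used here names the counter or the annotation release, and 97.6% of the transcripts were found in GENCODE v44. Where genes overlap on 1 strand (336 of those tested, by over 10% of the span) reads can be shared. No column of per-sample values was left out (0). Counts of the longest transcript per gene in the 4 irradiated libraries, the deposited counts being used unchanged, were tested in edgeR 4.0.16 (R 4.3.3; glmQLFit, TMM, filterByExpr at 10 reads and a sum of 15) with terms for cell and time, adjusted over all 17509 genes. Log2 ratios of single pairs used a prior count of 2. The UV by time term was fitted on 8 libraries with 1 intercept per pair. On simulated data the time test recovered 81% of 2-fold and 100% of 4-fold changes among 17353 genes with 12 false calls. For UV by time these were 10% and 78% among 17711 genes with 0 false calls. The simulated counts took their spread from the trend fitted to the same libraries, and changes were placed only in genes with many reads. Recovery and false calls thus hold for that setting and do not check the calls in the real data. The fitted spread (common dispersion) was 0.0185 over 4 libraries and 0.0445 over 8. Intervals of single pairs are exact binomial at 95% and cover counting error only.

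The members and lists were chosen with earlier results of these data known. Named genes were the stress-list genes under 10 kb, those with the 12 largest fitted changes in full, the 12 risen and 8 fallen genes with the largest change among those with at least 200 reads, the 5 genes per span class over 60 kb with the largest smaller-of-both ratio among those with at least 500 reads, the smallest UV by time p-values (4 per direction), the 3 most transcribed members of each list, and the genes the study discusses. Others were named after their values were seen. Alternatives were RLE, library totals, short-gene TMM and silent-family scaling, DESeq2 1.42.0, limma-voom (limma 3.58.1), other filters, the shortest transcript, fits of 8 libraries and each library left out. Python 3.11.15 and matplotlib 3.10.9 were used for tables and figures.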

Additional observations from a re-analysis of the deposited data

Results flagged for a closer look

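Values in 5 gene groups moved one way in both irradiated pairs and the opposite way in both unirradiated pairs. So did all genes under 10 kb (0.31 and 0.18 with UV-C against -0.67 and -0.30 without) and all tested genes (0.101 and 0.106 against -0.452 and -0.055). None of these differences was tested, and each is the mean log2 ratio of the 2 irradiated pairs minus that of the 2 unirradiated pairs. In active genes of 1 to 5 kb it was 0.91, with medians of 0.54 in WT and 0.28 in KD cells with UV-C against -0.70 and -0.30 without. In stretches with a midpoint within 5 kb of the start it was 0.89. In those with a midpoint at 5 to 10 kb it was 0.45 (0.24 and 0.19 with UV-C against -0.42 and -0.04 without). In the KLF transcription factor genes it was 0.61 (0.15 and 0.27 against -0.67 and -0.14), and in the ribosomal protein genes 0.99 (0.62 and 0.31 against -0.76 and -0.30). The unirradiated signs depended on the scaling: with scaling on silent families the WT median of the stretches with a midpoint within 5 kb was 0.54 without UV-C.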

How the results depend on the processing

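Under the alternatives, risen and fallen genes numbered 2137 and 931 with library totals, 1368 and 3947 with TMM over genes of 1 to 10 kb, 6147 and 256 with silent families, 679 and 335 with DESeq2, 1721 and 916 without a filter, 137 and 0 in the fit of 8 libraries with 1 intercept per pair, and 0 and 0 with additive terms (634 at an unadjusted p under 0.05). When each irradiated library was left out of the fit with 1 intercept per pair, few genes or none were called. The median of the short stress genes was 0.41 with short-gene TMM, 0.94 with silent families, 0.73 in the WT pair alone and 0.60 to 0.85 with a library left out. At least 2-fold in both pairs were 138 higher and 207 lower with short-gene TMM, 1018 and 7 with silent families, and 1400 and 938 at 1.5-fold. UV by time gave 914 genes with RLE, 1348 with DESeq2 and 0 to 5260 with a library left out, the most without the unirradiated KD library at 10 min. Genes of 1 to 10 kb minus 30 to 100 kb without UV-C were -0.86 at a density of 5, -1.01 with totals, -1.02 with silent families and -0.98 with the shortest transcript, and minus over 100 kb -0.37 with the shortest transcript. For stretches, midpoints in the first 5 kb minus those beyond 150 kb gave 0.64 with UV-C at 100 reads and 0.40 with shared ends. In genes over 60 kb the difference was 0.56 with UV-C and 0.70 without. Risen genes under 10 kb with both irradiated ratios below both others were 9 with totals and 61 with silent families (124 above), and over 60 kb 2 were above with silent families. Values that changed sign were *SNHG15* (0.017 with totals, 0.32 with silent families, 0.028 with limma-voom, 0.092 with 8 libraries, -0.72 to 0.78 with a library left out), *ZFAS1* (-0.15 with short-gene TMM, -0.011 at a minimum count of 50, -0.0086 with the shortest transcript, -0.12 to 0.41 with a library left out), *KIFAP3* (0.0049 with silent families), *CTNNBL1* (0.21 with silent families, -0.21 to 0.042 with a library left out), *TNKS* (-0.058 with the shortest transcript) and *THY1* (-1.86 to 0.085 with a library left out). The cause was not tested. Scaling on olfactory receptor genes was not run, since the tables hold 1 of them. Silent families, shared ends and genes over 60 kb were chosen after seeing the data. Summary values stayed within the spread or within 1.5 times the count in 55 settings and moved further in 52. The mean differences by span and by distance kept their sign. Counts have no sign, but fallen genes outnumbered risen ones with short-gene TMM and at a minimum count of 50 (1978 risen and 2112 fallen). Genes with few reads, such as *DDIT3*, and genes of low density are limited by depth.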

Other observations

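Genes with the smallest p for a difference between the time effect with and without UV-C, none of which passed after adjustment, had ratios higher with UV-C in some cases and lower in others. *RPL10A*, a ribosomal protein gene of 2.38 kb, had log2 ratios of 1.05 and 0.71 in irradiated WT and KD cells against -1.14 and -1.14 without UV-C. *LAMP5* (15.9 kb) had 0.43 and 0.51 with UV-C against -1.74 and -1.67 without. In the other direction *MAP2K4*, the gene of a kinase that activates JNK (123.0 kb), had 0.65 and 0.70 with UV-C against 2.85 and 2.58 without, and *DPY19L2P1* (82.1 kb) had 0.31 and 0.76 with UV-C against 3.28 and 3.17 without. *AC008147.2* lies wholly within *LIMA1* on the same strand, so its values (-0.30 and 0.98 against 3.33 and 3.32) cannot be told apart from that gene's.

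Fibroblast matrix, adhesion and contractile genes moved little: of 37 tested 3 rose (8.11%) and 2 fell (5.41%), with a median log2 change of 0.18. Of all tested genes 12.7% rose and 9.94% fell. *TAGLN*, an actin-binding gene of 5.39 kb, rose by 1.59, and the collagen gene *COL6A3*, of 90.4 kb, fell by 0.63. Of 19 TGF-beta and BMP feedback genes 1 rose and 1 fell (5.26% each), and of 18 YAP and TEAD targets 3 rose (16.7%), *CCN2*, *ANKRD1* and *AJUBA*. Of active members 9.38% rose in the matrix list, 7.14% in the TGF-beta list and 20% in the YAP list, beside 24.3% of all active genes. All 3 measured replication-dependent histone genes rose. Of 14 KLF genes 1 rose (7.14%) and 3 fell (21.4%), and of 12 Integrator genes 5 rose (41.7%). At the 2-fold limit in both pairs *SPC25* lay just inside and *AARS2* just outside, both with a smaller ratio of 1.00 on the log2 scale.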
